A study of Mus musculus with 12 samples.

Results

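Annexins are cytosolic proteins that bind phospholipid membranes when calcium rises, through a conserved core of repeats, and several of them gather at damaged plasma membrane or organise membrane traffic. S100 proteins are small EF-hand calcium sensors that work as dimers, and some of them bind the N-terminal tail of a particular annexin. S100A10 dimers link a pair of annexin A2 molecules into a tetramer that holds plasminogen at the cell surface, S100A11 binds annexin A1, and S100A6 binds several annexins and was first described as a protein of dividing cells. In healthy liver, annexin A6 and annexin A5 are known as abundant hepatocyte annexins, whereas annexins A1, A2 and A3 are better known from bile duct cells, macrophages and injured or malignant liver.

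The 10 genes described here are 7 annexins, Anxa1 to Anxa7, and 3 S100 genes, S100a6, S100a10 and S100a11, out of 54839 features in the table. They were chosen by gene symbol with earlier fold changes between the 4 groups of these same libraries known, the fraction by treatment difference of Anxa2 among them. Which other comparisons guided the list was not recorded, so that the levels and fold changes are descriptions, the adjusted p-values show where a gene stood in a fit of all genes, and none of them is independent evidence about the family. The filter on low counts kept 9 of the 10 genes, and S100a6 was left out of the tests because 8 of 12 libraries held 0 counts of it.

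The libraries were bulk RNA-seq of Tom+ and Tom- hepatocytes sorted from male heterozygous p16-Tom mice on a C57BL/6 background, in 4 groups of 3 (Tom- oil, Tom+ oil, Tom- CCl4 and Tom+ CCl4). These mice carry p16-CreERT2 and R26-CAG-LSL-tdTomato-WPRE, and all groups received tamoxifen, so that a cell in which the p16Ink4a promoter drove the recombinase at that time, whatever its type, became red for good. CCl4, a liver toxicant that is activated in and harms pericentral hepatocytes, was injected repeatedly in corn oil, and the oil groups were given corn oil. Age is not given in the sources used here, and the labels do not state that Tom+ and Tom- libraries of the same number came from the same mouse. Total counts ranged from 37568584 to 75331424 per library, and 6 hepatocyte markers summed to between 89012 and 133870 CPM (counts scaled by library size) in every library. The reporter went against the label in 2 oil libraries: Tom- oil replicate 1 held 1794 CPM of reporter counts and Tom+ oil replicate 2 held 135 CPM, whereas the other Tom- libraries lay between 119.7 and 263 CPM and the other Tom+ libraries between 1225 and 1546 CPM. Of the oil pairs of the same number, pair 3 was thus the one in which the reporter was high in Tom+ and low in Tom-. Labels were kept as deposited, and edgeR and limma-voom calls of annexin, S100 and partner genes that rest on the oil groups are followed by the value without these 2 libraries. The exceptions are edgeR calls with a coefficient for each pair or replicate number, which were not repeated without these 2 libraries.

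Levels are RPKM (read counts scaled by gene length and library size) after TMM normalization, computed from the deposited counts and the feature lengths, and are given as mean ± SD with n = 3 libraries. A gene was called when edgeR's quasi-likelihood test gave a Benjamini-Hochberg adjusted p-value under 0.05 over 17121 genes and the log2 fold change lay beyond 0.75 in either direction. Since replicates were not stated to come from separate mice, p-values measure the spread between these libraries. Where groups are said not to overlap, the share of all genes that did so was not computed. Such statements describe the libraries only and are not results about these genes.

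The genes lie on 7 mouse chromosomes in the mm10 coordinates of the table. Anxa1 (chr19:20373428-20390944) and the S100a10 partner Anxa2 (chr9:69453620-69491795) stand alone, as do Anxa3 (chr5:96793339-96845966), Anxa4 (chr6:86736840-86793584), Anxa6 (chr11:54979108-55033445) and Anxa7 (chr14:20455260-20480133). Chromosome 3 holds Anxa5 (chr3:36448923-36475894) and all 3 S100 genes. S100a11 (chr3:93520488-93526287) ends 28.8 kb before the start of S100a10 (chr3:93555080-93564643), and S100a6 (chr3:90612882-90624181) lies 2896.3 kb further up the chromosome. These neighbours on chromosome 3 differed widely in level and in their values across the groups, as described below.

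Anxa2 and S100a11, the genes of the list called higher with CCl4 in both fractions together with Anxa1, are shown by the genomic bases just before their first annotated exon, since both held the letters TGANTCA, the AP-1 motif. The sequences are RefSeq's, build GRCm38.p6, plus strand, read 5′ to 3′. Capitals mark matches of the motifs searched on both strands in the 250 bases before the RefSeq start: AP-1 (TGANTCA), TEAD (GGAATG), SP1 (GGGCGG), the antioxidant element (TGACNNNGC) and the TATA box (TATAAA). The first covers chr9:69453433-69453619 and the second chr3:93520246-93520487.
Anxa2: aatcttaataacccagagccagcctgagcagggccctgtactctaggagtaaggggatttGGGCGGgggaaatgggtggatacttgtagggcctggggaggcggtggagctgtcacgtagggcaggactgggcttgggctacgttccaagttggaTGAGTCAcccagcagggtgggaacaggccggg
S100a11: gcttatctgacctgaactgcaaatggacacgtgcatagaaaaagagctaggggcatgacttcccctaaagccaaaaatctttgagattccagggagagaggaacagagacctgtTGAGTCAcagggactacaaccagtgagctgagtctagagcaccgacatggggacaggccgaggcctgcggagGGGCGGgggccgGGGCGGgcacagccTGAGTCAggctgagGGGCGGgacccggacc
The AP-1 letters stood 95 bases before the RefSeq start of Anxa2, and 136 and 38 bases before that of S100a11. In the same window they were found in 6.75% of 32851 promoters, so that a match is common enough to be a description only. SP1 letters were present 3 times in each of these windows, some of them beyond the bases printed, and occurred in 32.7% of promoters. The Anxa2 window also held a TATA box beyond the bases printed. The Anxa1 window held a TATA box 32 bases before the start and TEAD letters on the opposite strand, and no AP-1 letters. Of the other genes with an entry, Anxa5 and S100a6 held none of the 5 motifs, Anxa4 held an antioxidant element at its upstream start, and Anxa7 held SP1 letters at both of its starts. In all, 7 of the 10 genes had an entry in the promoter table.

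Expression of the genes spanned nearly 3 orders of magnitude on the RPKM scale, and the plot of the levels shows each library. S100a10 had the highest mean level over the 12 libraries (61.8 RPKM), followed by Anxa6 (45.1), Anxa5 (33.9), Anxa7 (9.65) and Anxa4 (7.34). S100a11 (3.005), Anxa2 (2.25), Anxa1 (0.472), Anxa3 (0.451) and S100a6 (0.0790) followed. The order held within each of 12 libraries for most neighbours: S100a10 exceeded Anxa6, Anxa5 exceeded Anxa7, Anxa7 exceeded Anxa4, Anxa4 exceeded S100a11, and Anxa2 exceeded Anxa1 in 12 of 12. Anxa6 exceeded Anxa5 in 11 of 12 libraries and S100a11 exceeded Anxa2 in 10 of 12. Anxa1 exceeded Anxa3 in 5 of 12, so the order of these low genes is not fixed by the data. The order also depends on the feature lengths, which run from 511 bases for S100a11 to 5991 for Anxa7. In CPM, which is not divided by length, Anxa6 (110.3 to 165.6) exceeded S100a10 (61.3 to 89.2) in every library. Anxa2 (1.96 to 21.5 CPM) likewise exceeded S100a11 (0.496 to 3.49 CPM) in every library.

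**Figure D1:**
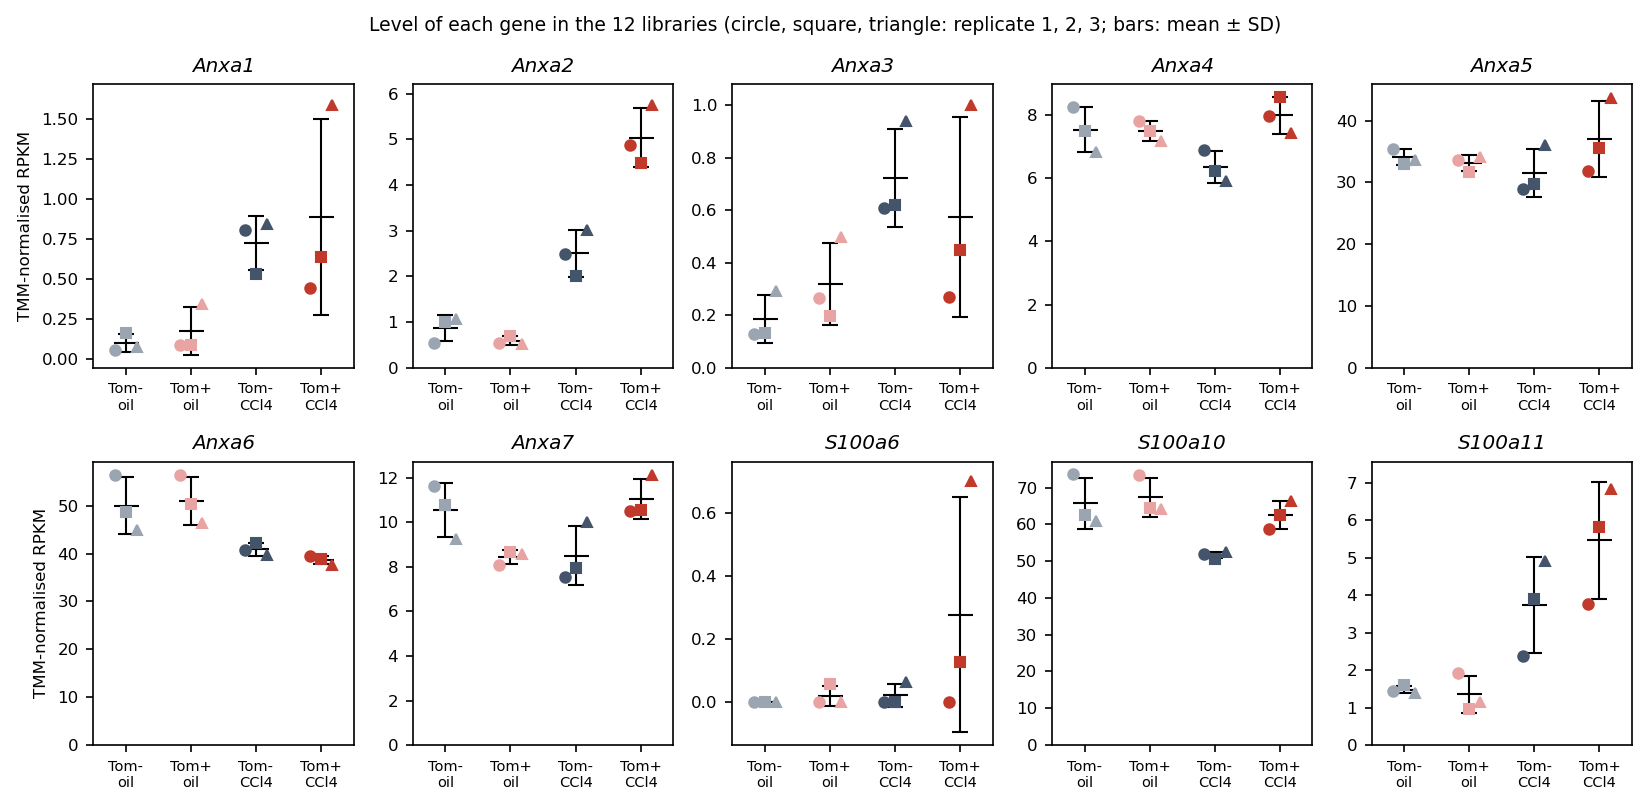
Level of each of the 10 genes in TMM-normalised RPKM (y axis, linear) in the 4 groups (x axis), with symbols for replicates 1 to 3 and black bars for mean ± SD. Anxa1, Anxa2 and S100a11 lie higher in all 6 CCl4 libraries than in the 6 oil libraries, and Anxa2 separates further into Tom- CCl4 (2.001 to 3.02) and Tom+ CCl4 (4.48 to 5.76). The share of all genes separated in this way was not computed.

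Anxa2, which encodes the partner of S100A10, was called between the CCl4 fractions as well as with CCl4. Its level was 0.551, 1.002 and 1.07 RPKM in Tom- oil replicates 1 to 3 and 0.542, 0.706 and 0.525 RPKM in Tom+ oil. With CCl4 it was 2.49, 2.001 and 3.02 RPKM in Tom- and 4.88, 4.48 and 5.76 RPKM in Tom+. All 6 CCl4 libraries were above all 6 oil libraries, and the 3 Tom+ CCl4 libraries were above every other library. These levels rest on 78 to 195 counts per oil library and 270 to 1479 counts per CCl4 library.

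In CCl4-treated mice, Anxa2 was 2.01-fold higher in Tom+ than in Tom- hepatocytes (log2 fold change 1.01, SE 0.22, edgeR adjusted p = 0.0194). The ratio was 1.96, 2.24 and 1.91 in same-numbered pairs 1 to 3, so that it was higher in 3 of 3. It was the only gene among the 9 tested that was called in this comparison, in which 0.222% of all tested genes were called higher and 1.74% lower. With a coefficient for each pair the log2 fold change was 1.02 (adjusted p = 0.00049). The call was lost without Tom- CCl4 replicate 1 (adjusted p = 0.0543), Tom- CCl4 replicate 2 (0.107), Tom+ CCl4 replicate 1 (0.0531), Tom+ CCl4 replicate 2 (0.0537) or Tom+ CCl4 replicate 3 (0.0549), while the log2 fold change stayed between 0.87 and 1.16.

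Oil-treated mice gave no call for any of the 9 genes. With 1 coefficient per group, edgeR called 0% of all tested genes higher or lower, with 1198 genes at an unadjusted p under 0.05. DESeq2 called 8 genes higher and 11 lower, and edgeR with a coefficient for each pair called 11 higher and 29 lower. Without Tom- oil replicate 3 edgeR called 19 higher and 7 lower, and without Tom+ oil replicate 3 it called 12 higher and 13 lower. None of these calls was among the 9 genes. Anxa2 had ratios of 0.983, 0.704 and 0.492 in the oil pairs, of which the reporter separated the fractions in the last, and its log2 fold change was -0.57 (95% CI -1.08 to -0.07, adjusted p = 0.661). Without the libraries whose reporter went against the label, the oil comparison again called none of the 9 genes. The difference between the Tom+ effect in CCl4 and that in oil was 1.58 for Anxa2 on the log2 scale (SE 0.32, interaction test, adjusted p = 0.0339), with 0.216% of all genes called higher and 0.958% lower. It was 1.96 (adjusted p = 0.0181) without the 2 oil libraries whose reporter went against the label, and 1.54 (adjusted p = 0.000872) with a coefficient for each pair. Leaving out 1 library took the adjusted p above 0.05 in 8 of 12 cases: Tom- oil replicate 2 (0.0826) or 3 (0.0533), Tom+ oil replicate 1 (0.0881), Tom- CCl4 replicate 1 (0.0581) or 2 (0.0991), and Tom+ CCl4 replicate 1 (0.0587), 2 (0.0801) or 3 (0.0669), with Anxa2 between 1.41 and 1.82.

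**Figure D2:**
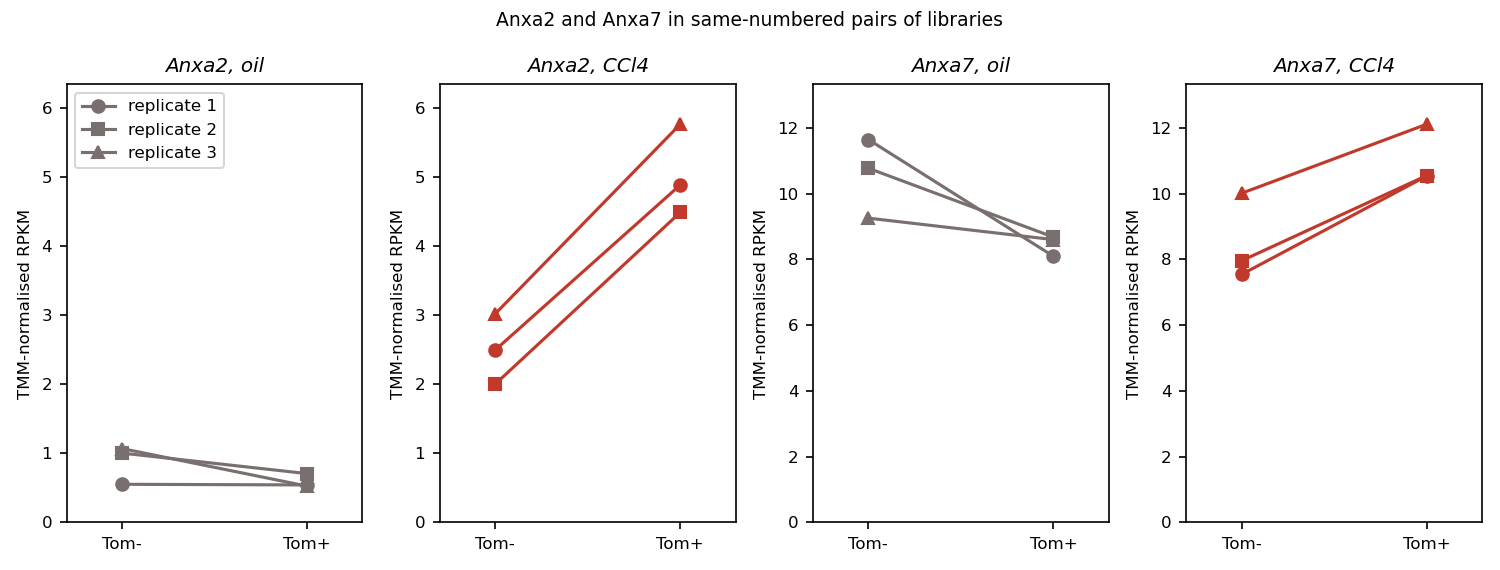
Levels of Anxa2 and Anxa7 in TMM-normalised RPKM (y axes from 0) in Tom- and Tom+ libraries (x axis), with lines joining libraries of the same replicate number. The lines of Anxa2 and Anxa7 rise from Tom- to Tom+ in 3 of 3 CCl4 pairs and fall in 3 of 3 oil pairs.

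Treatment with CCl4 raised Anxa2 in both fractions. The log2 fold change against oil was 1.51 (SE 0.23, adjusted p = 0.00124) in Tom- and 3.09 (SE 0.24, adjusted p = 7.3e-06) in Tom+, which are 2.85-fold and 8.51-fold on the linear scale. Both calls held when any 1 library was left out, with ranges of 1.27 to 1.68 in Tom- and 2.98 to 3.24 in Tom+. They also held without both oil libraries whose reporter went against the label (1.28, adjusted p = 0.00372 in Tom- and 3.24, adjusted p = 1.8e-05 in Tom+). The reverse-transcription PCR primers that the study designed for Anxa2 are shown because they place the study's own assay on the gene. The forward primer caccaacttcgatgctgagagg matched exon 3 of the GENCODE M21 transcript Anxa2-201 (chr9:69467332-69467353) and the reverse primer gcacattgctgcggtttgtcag matched exon 4 (chr9:69476082-69476103). Both lie in coding sequence and give a product of 110 bases across the exon junction. The antisense gene Gm16144 shares 98 exonic bases with Anxa2 and held 0 to 4 counts in the libraries.

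S100a10 was abundant throughout and moved little. Its level was 73.6, 62.6 and 60.8 RPKM in Tom- oil, 73.6, 64.6 and 64.1 in Tom+ oil, 52.1, 50.6 and 52.4 in Tom- CCl4 and 58.8, 62.6 and 66.4 in Tom+ CCl4. The Tom- CCl4 libraries were lower than all others. The log2 fold change with CCl4 in Tom- was -0.35 (SE 0.09), past the adjusted p threshold (0.0216, where 6.75% of all genes were past it and lower) but not the fold threshold. Without both oil libraries whose reporter went against the label it was -0.25 (adjusted p = 0.102). In Tom+ it was -0.11 (95% CI -0.30 to 0.09, adjusted p = 0.517). Between the CCl4 fractions S100a10 had ratios of Tom+ to Tom- of 1.13, 1.24 and 1.27. The log2 fold change was 0.28 (SE 0.09, adjusted p = 0.0905, or 0.0112 with a coefficient for each pair), within the fold threshold. The ratio of S100a10 to Anxa2 in RPKM was therefore 57.0 to 135.7 in the oil libraries, 17.4 to 25.3 in Tom- CCl4 and 11.5 to 13.97 in Tom+ CCl4. In every library the transcript of the S100 partner thus outnumbered that of its annexin per unit of length, by the narrowest margin in Tom+ CCl4.

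Anxa1, which encodes a mediator known for limiting inflammation and the partner of S100A11, was low in oil and higher with CCl4. It measured 0.0607, 0.163 and 0.0783 RPKM in Tom- oil and 0.0886, 0.0878 and 0.347 RPKM in Tom+ oil. With CCl4 it measured 0.805, 0.530 and 0.842 RPKM in Tom- and 0.444, 0.636 and 1.58 RPKM in Tom+. The lowest CCl4 library lay above the highest oil library, which was Tom+ oil replicate 3, and Tom+ CCl4 replicate 3 was the highest of all. The counts behind these values were 6 to 37 in oil and 50 to 198 with CCl4. Anxa1 rose 7.02-fold with CCl4 in Tom- (log2 2.81, SE 0.63, adjusted p = 0.0109) and 5.24-fold in Tom+ (log2 2.39, SE 0.60, adjusted p = 0.0257). The Tom+ call was lost without Tom+ oil replicate 1 (adjusted p = 0.111), Tom+ oil replicate 2 (0.101) or Tom+ CCl4 replicate 3 (0.120). Without both oil libraries whose reporter went against the label, the adjusted p of Anxa1 was 0.0515 in Tom- and 0.115 in Tom+. Between fractions Anxa1 gave log2 fold changes of 0.28 in CCl4 (95% CI -0.91 to 1.47) and 0.70 in oil (-0.72 to 2.13), and these intervals leave room for large differences in either direction.

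S100a11, which encodes the partner of annexin A1, was likewise higher with CCl4. Its level was 1.45, 1.59 and 1.40 RPKM in Tom- oil, 1.92, 0.971 and 1.15 in Tom+ oil, 2.37, 3.90 and 4.92 in Tom- CCl4 and 3.76, 5.81 and 6.82 in Tom+ CCl4. All CCl4 libraries were above all oil libraries, from 24 to 68 counts in oil and 48 to 167 with CCl4. S100a11 rose 3.98-fold with CCl4 in Tom+ (log2 1.99, SE 0.34, adjusted p = 0.00313), a call that held without any 1 library and without both oil libraries whose reporter went against the label (log2 1.81, adjusted p = 0.0249). In Tom- it rose 2.52-fold (log2 1.33, SE 0.34, adjusted p = 0.0195). That call was lost without Tom- oil replicate 1 (0.0610), 2 (0.0506) or 3 (0.0526), or Tom- CCl4 replicate 2 (0.0561) or 3 (0.0851). It was also lost without both oil libraries whose reporter went against the label (0.0626) and with limma-voom (0.0561). S100a11 was higher in Tom+ than in Tom- in 3 of 3 CCl4 pairs (ratios 1.58, 1.49 and 1.39) but was not called (log2 0.54, 95% CI -0.16 to 1.24, adjusted p = 0.352).

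Anxa3, an annexin known from phagocytes and from hepatocyte growth, was low in all groups. It measured 0.130, 0.133 and 0.292 RPKM in Tom- oil, 0.266, 0.199 and 0.497 in Tom+ oil, 0.611, 0.622 and 0.939 in Tom- CCl4 and 0.270, 0.449 and 1.003 in Tom+ CCl4. The Tom- groups did not overlap, whereas the Tom+ groups did. Anxa3 rose 3.89-fold with CCl4 in Tom- (log2 1.96, SE 0.51, adjusted p = 0.0207). This call was lost without Tom- oil replicate 1 (0.0801) or 2 (0.0784), or Tom- CCl4 replicate 3 (0.0720), and without both oil libraries whose reporter went against the label (0.0830). In Tom+ the log2 fold change was 0.84 (95% CI -0.20 to 1.89, adjusted p = 0.314), and the difference between the fractions' effects was not called (-1.12, adjusted p = 0.417).

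In all, 4 of the 9 tested genes were called higher with CCl4 in Tom- (Anxa1, Anxa2, Anxa3 and S100a11), where 6.33% of all genes were called higher and 1.59% lower. In Tom+ 3 were called higher (Anxa1, Anxa2 and S100a11), where 2.90% of all genes were called higher and 2.34% lower. None of the 9 was called lower in either fraction. Without both oil libraries whose reporter went against the label, 1 gene in Tom- (Anxa2) and 2 in Tom+ (Anxa2 and S100a11) were called. In that setting, 757 of 17525 genes were called higher and 200 lower in Tom-. In Tom+ 366 were called higher and 248 lower. The median log2 fold change over the 9 genes was -0.11 in Tom- and 0.39 in Tom+, against 0.00 over all genes tested in each. Averaged over both fractions, with limma-voom and same-numbered libraries of a treatment as a random block, Anxa1, Anxa2, Anxa3 and S100a11 were called higher (log2 fold changes 2.65, 2.30, 1.33 and 1.56), where 4.83% of all genes were called higher and 1.85% lower. Of these, Anxa3 had an adjusted p of 0.0421 and lost the call in 10 of 12 fits that left out 1 library. The call of Anxa1 over both fractions (adjusted p = 0.0138) was lost without Tom- oil replicate 3 (0.0504). The adjusted p over both fractions without both oil libraries whose reporter went against the label was 0.0543 for Anxa1, 0.117 for Anxa3, 0.0243 for S100a11 and 2.6e-05 for Anxa2. The contrasts of CCl4 with oil in Tom- and in Tom+ use different libraries, but same-numbered libraries of a treatment were correlated. Their deviations from group means gave 0.348 to 0.549 in oil and 0.504 to 0.707 in CCl4. The calls in Tom- and Tom+ are therefore not independent of each other. Each of the 4 groups also enters a contrast between fractions as well as one between treatments.

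**Figure D3:**
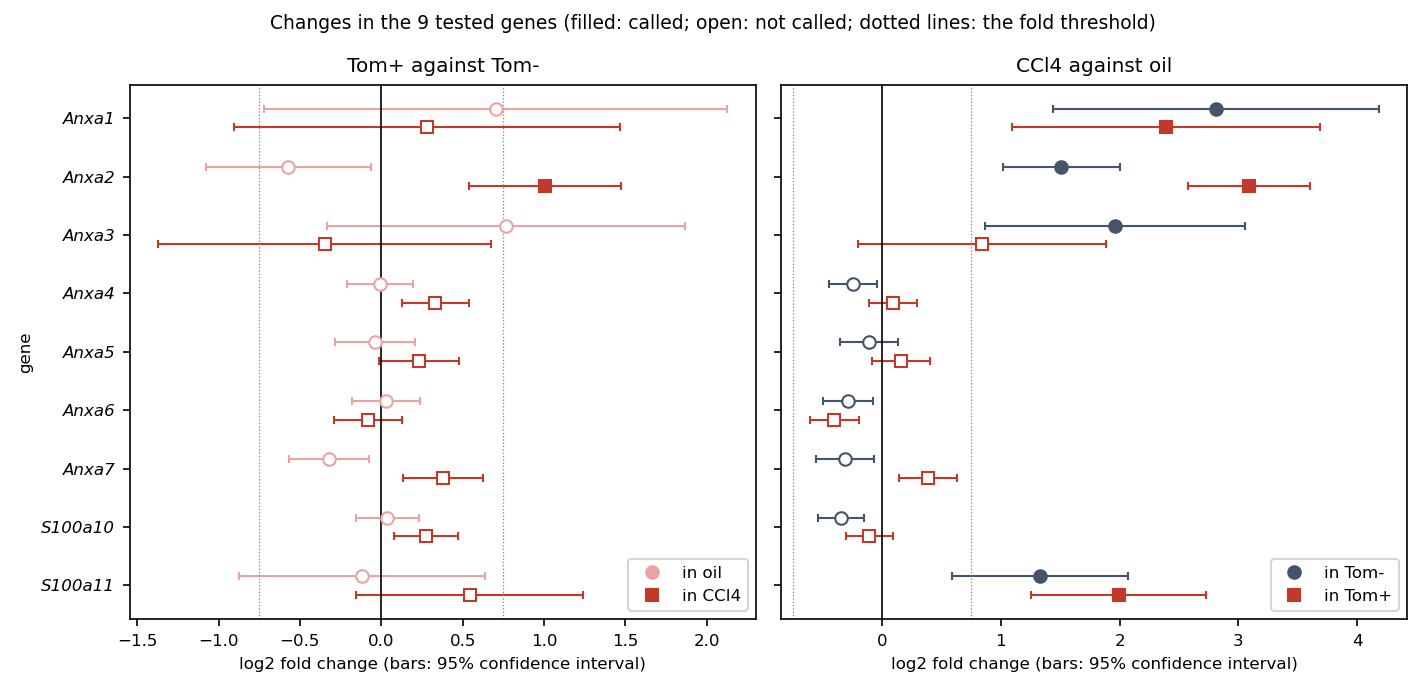
Log2 fold changes (x axis, with 95% confidence intervals) of the 9 tested genes (y axis) between fractions in each treatment (left) and between treatments in each fraction (right), with filled symbols for called genes. Anxa2 is the filled gene on the left (1.01 in CCl4), and on the right the filled genes are Anxa1, Anxa2 and S100a11 in both fractions and Anxa3 in Tom-.

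The annexins that are abundant in hepatocytes stayed within a narrow range. Anxa6, which encodes an annexin with a doubled core involved in cholesterol traffic and endocytosis, measured 56.5, 48.6 and 44.8 RPKM in Tom- oil, 56.3, 50.4 and 46.3 in Tom+ oil, 40.7, 42.3 and 39.7 in Tom- CCl4 and 39.4, 38.9 and 37.7 in Tom+ CCl4. All CCl4 libraries were below all oil libraries. The log2 fold change with CCl4 was -0.40 in Tom+ (SE 0.10, adjusted p = 0.0205, where 4.56% of all genes were past the adjusted p threshold and lower) and -0.29 in Tom- (SE 0.10, adjusted p = 0.0586), so that neither passed the fold threshold. Averaged over both fractions the log2 fold change of Anxa6 was -0.34 (adjusted p = 0.00839, where 6.62% of all genes were past that threshold and lower), again within the fold threshold. Anxa6 had an adjusted p of 0.0381 in Tom+ and 0.0310 over both fractions without both oil libraries whose reporter went against the label. Between fractions Anxa6 differed by -0.08 in CCl4 (95% CI -0.29 to 0.13) and by 0.03 in oil (-0.18 to 0.24).

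Anxa5, the phosphatidylserine binder used to stain dying cells, had group means of 34.0 ± 1.3, 33.2 ± 1.3, 31.5 ± 3.9 and 37.0 ± 6.1 RPKM in Tom- oil, Tom+ oil, Tom- CCl4 and Tom+ CCl4. The log2 fold change of Anxa5 was 0.23 between fractions in CCl4 (95% CI -0.01 to 0.48, adjusted p = 0.250, or 0.0309 with a coefficient for each pair). Anxa4, an annexin of epithelial cells, had group means of 7.53 ± 0.71, 7.50 ± 0.32, 6.35 ± 0.51 and 7.99 ± 0.57 RPKM in the same order. In CCl4, Anxa4 was higher in Tom+ in 3 of 3 pairs (ratios 1.15, 1.37 and 1.26). The log2 fold change was 0.33 (SE 0.10, adjusted p = 0.0576, or 0.0102 with a coefficient for each pair), within the fold threshold. Neither gene was called in any comparison. A few counts of Anxa4 and Anxa5 had fractions, which came to at most 0.0477% and 0.0170% of the gene's count, and Anxa4 shares 75 exonic bases with the opposite-strand gene Gm44036.

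Anxa7, which encodes an annexin involved in membrane fusion during secretion, changed side between the treatments. It measured 11.6, 10.8 and 9.26 RPKM in Tom- oil and 8.10, 8.68 and 8.60 RPKM in Tom+ oil, without overlap. With CCl4 it measured 7.54, 7.96 and 10.01 RPKM in Tom- and 10.54, 10.55 and 12.1 RPKM in Tom+, again without overlap and in the opposite order. The ratios of Tom+ to Tom- were 0.695, 0.806 and 0.929 in oil and 1.40, 1.33 and 1.21 in CCl4. Neither comparison between fractions was called (log2 -0.32, adjusted p = 0.601 in oil and 0.38, adjusted p = 0.0675 in CCl4). With a coefficient for each pair the CCl4 value was 0.39 (adjusted p = 0.0060), past the adjusted p threshold but not the fold threshold. The difference between the oil and CCl4 comparisons was 0.70 on the log2 scale (SE 0.16, adjusted p = 0.0493), again past the adjusted p threshold but not the fold threshold. Of all genes, 0.473% were past that adjusted p threshold and higher in the interaction and 1.07% were past it and lower. It was 0.65 (adjusted p = 0.139) without both oil libraries whose reporter went against the label, and leaving out 1 library put the adjusted p between 0.0176 and 0.144. With CCl4 the log2 fold change of Anxa7 was 0.39 in Tom+ (adjusted p = 0.0491, or 0.0925 without both oil libraries whose reporter went against the label) and -0.31 in Tom- (adjusted p = 0.0807). The Tom+ value was past the adjusted p threshold but not the fold threshold. Of 17121 genes, 841 were past that adjusted p threshold and higher with CCl4 in Tom+.

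S100a6 was near the limit of detection. It held 0 counts in Tom- oil replicates 1 to 3, in Tom+ oil replicates 1 and 3, in Tom- CCl4 replicates 1 and 2 and in Tom+ CCl4 replicate 1. A count of 0 allows up to 3 counts, which is 0.0369 to 0.0829 CPM at the depths of the 12 libraries, and this limit covers counting error only. The other libraries held 4 counts in Tom+ oil replicate 2, 4 in Tom- CCl4 replicate 3, 8 in Tom+ CCl4 replicate 2 and 46 in Tom+ CCl4 replicate 3. The highest value was thus 0.702 RPKM in a group whose first replicate held none, and no fold was computed.

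Anxa6, Anxa5 and Anxa7 made up most of the annexin sum. The 7 annexins summed to 103.3 ± 8.5 RPKM in Tom- oil, 101.2 ± 4.9 in Tom+ oil, 91.2 ± 4.5 in Tom- CCl4 and 101.2 ± 7.2 in Tom+ CCl4. Anxa6 made up 46.7 to 52.7% of the sum in the oil libraries, 41.2 to 47.3% in Tom- CCl4 and 34.5 to 41.4% in Tom+ CCl4. Anxa2 made up 0.489 to 1.11% in oil, 2.24 to 3.13% in Tom- CCl4 and 4.52 to 5.27% in Tom+ CCl4. The CCl4 fractions overlap for the sum and for the share of Anxa6. The sum in Tom- CCl4 (88.0 to 96.4 RPKM) also overlapped that in Tom- oil (96.0 to 112.6 RPKM). It lay below that in Tom+ oil (97.6 to 106.8 RPKM), a group that differs in both fraction and treatment. The share of Anxa2 did not overlap between oil, Tom- CCl4 and Tom+ CCl4.

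**Figure D4:**
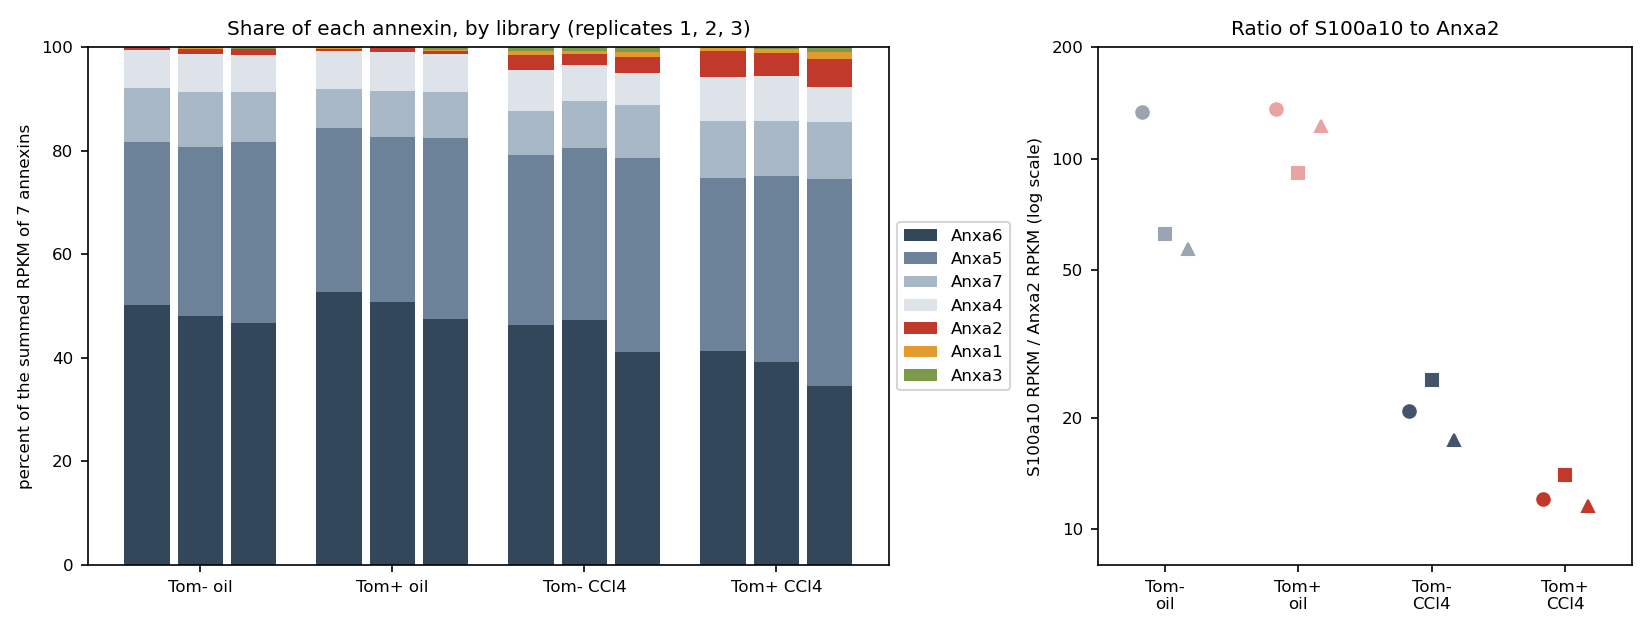
Left, share of each of the 7 annexins in their summed RPKM (y axis, percent) in the 12 libraries, grouped along the x axis. Right, ratio of S100a10 to Anxa2 RPKM (y axis, log scale) by group, which is 57.0 to 135.7 in oil, 17.4 to 25.3 in Tom- CCl4 and 11.5 to 13.97 in Tom+ CCl4.

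Within the CCl4 groups, replicate 3 was the highest library in both fractions for 8 of the 10 genes and the lowest in both for the other 2, Anxa4 and Anxa6. In oil no replicate number was highest in both fractions for more than 3 genes. The share of all genes with such an order was not computed. Deviations from group means correlated at 0.707 between the 2 CCl4 libraries of replicate 3 over 8560 genes, so that the order may not be particular to these genes. Markers of other liver cells varied in the same libraries. The summed level of 6 macrophage markers was 78.9, 75.4 and 105.3 CPM in Tom- CCl4 and 47.3, 40.4 and 112.3 CPM in Tom+ CCl4, and it was 12.9, 15.7 and 64.8 CPM in Tom- oil and 24.2, 20.4 and 101.8 CPM in Tom+ oil. Tom+ oil replicate 3, the oil library with the highest Anxa1 and Anxa3, was thus also the oil library with the highest macrophage sum. Its stellate (20.7 CPM) and endothelial (154.0 CPM) sums were likewise the highest in oil, and its cholangiocyte sum (5.88 CPM) was not. With CCl4, replicate 3 had the highest stellate sum in Tom- (78.4 CPM) and Tom+ (92.5 CPM). The same held for its cholangiocyte sum (12.9 and 18.0 CPM). Its endothelial sum was the lowest of Tom- CCl4 (210.5 CPM) and the highest of Tom+ CCl4 (148.7 CPM). Anxa2 was 0.525 RPKM in Tom+ oil replicate 3, the lowest value of all libraries, and 1.07 RPKM in Tom- oil replicate 3, the highest of the oil libraries and the one with the next highest macrophage sum in oil. None of the 6 macrophage markers was called with CCl4 in either fraction, and Cd5l was called higher over both fractions.

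The sum of 6 stellate cell markers was 6.62 to 20.7 CPM in the oil libraries, 61.7 to 78.4 CPM in Tom- CCl4 and 46.8 to 92.5 CPM in Tom+ CCl4, and with CCl4 6 of 6 were called higher in Tom- and 5 of 6 in Tom+. For 6 endothelial markers the sum was 82.3 to 154.0 CPM in oil, 210.5 to 230.3 CPM in Tom- CCl4 and 110.5 to 148.7 CPM in Tom+ CCl4, with 6 of 6 called higher with CCl4 in Tom- and none in Tom+. The sum of 6 cholangiocyte markers was 5.25 to 7.38 CPM in oil and 8.47 to 18.0 CPM with CCl4. Of the 2 cholangiocyte markers tested, Spp1 was called higher with CCl4 in Tom+ and over both fractions and none was called in Tom-, and the keratins Krt19 and Krt7 were at 0 counts in both oil groups. Neutrophil markers reached at most 1.13 CPM and lymphocyte markers at most 0.380 CPM. The part of these cells in the CCl4 changes of Anxa1, Anxa2, Anxa3 and S100a11 was not tested, and in bulk RNA fewer cells of a type and less RNA per cell cannot be told apart.

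Between the CCl4 fractions, where Anxa2 differed, 0 of 6 stellate, 0 of 6 macrophage and 0 of 2 tested cholangiocyte markers were called, and 4 of 6 endothelial markers were lower in Tom+. The fractions also differed in zonal markers. The sum of 6 pericentral hepatocyte markers was 3033 to 4082 CPM in Tom+ CCl4 and 1289 to 2179 CPM in Tom- CCl4 with none called, and 3 of 6 periportal markers were called lower in Tom+ (Gls2, Sds and Cyp2f2). The periportal sum was 4307 to 5615 CPM in Tom+ CCl4 and 7023 to 8920 CPM in Tom- CCl4. The part of zone in the Anxa2 and Anxa7 values was not tested.

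The remaining annexin and S100 genes of the mouse, 19 listed by family name, were mostly low, and 7 of them passed the filter and were tested. S100a1 was the highest with 67.4 ± 4.0 to 93.9 ± 19.4 RPKM across the groups, followed by S100a13, S100a16 and Anxa11 (group means of 13.2 to 16.9, 9.52 to 10.4 and 3.76 to 4.73 RPKM), and none of these was called in any comparison. S100g, which encodes the vitamin D-dependent calcium buffer calbindin-D9k, was the exception. It held 0 counts in each Tom+ oil library and 85, 116 and 26 counts in Tom+ CCl4 replicates 1 to 3, which is at least 23.7-fold higher than the level of 3 counts per library (adjusted p = 0.00813). In Tom- it held 4, 0 and 0 counts in oil and 6, 32 and 7 counts with CCl4, and was not called (adjusted p = 0.0783), whereas DESeq2 called it (log2 3.63, adjusted p = 0.0148). Averaged over both fractions S100g was called higher (adjusted p = 0.0110, or 0.0505 without Tom+ oil replicate 1). The adjusted p of S100g without both oil libraries whose reporter went against the label was 0.0281 in Tom+ and 0.0351 over both fractions. S100g was higher in Tom+ in 3 of 3 CCl4 pairs (ratios 6.90, 2.86 and 3.67), and this comparison was called with a coefficient for each pair (log2 1.98, adjusted p = 0.0194) and not without it (1.81, adjusted p = 0.268). The interaction was likewise called for S100g with that coefficient (adjusted p = 0.0372) and not without it (0.301). With that coefficient, 126 of all 17121 genes were called higher between the CCl4 fractions and 220 in the interaction. S100a4, known from fibroblasts and macrophages, held at most 18 counts, in Tom+ CCl4 replicate 3, and the neutrophil genes S100a8 and S100a9 held at most 17 and 22 counts in a library.

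Of genes whose products work with annexins, 27 were listed from general knowledge as receptors, plasminogen system, membrane repair, calpain and calcium partners, and 24 were tested. In Tom- with CCl4 3 were called higher and none lower, in Tom+ with CCl4 1 was called higher, over both fractions 2 were called higher, and between the CCl4 fractions 1 was called lower in Tom+. The shares of all tested genes called in the same comparisons and directions were 6.33%, 2.90%, 4.83% and 1.74%. Chmp4c, a subunit of the membrane-scission complex ESCRT-III, was the gene called in both fractions. It rose with CCl4 in Tom- from 0.244 ± 0.029 to 0.428 ± 0.147 RPKM (log2 0.82, adjusted p = 0.0260) and in Tom+ from 0.336 ± 0.031 to 0.631 ± 0.068 RPKM (log2 0.91, adjusted p = 0.0197). Without both oil libraries whose reporter went against the label, Chmp4c had adjusted p-values of 0.0562 and 0.0544. The call of Chmp4c in Tom- was also lost without Tom- oil replicate 2 (log2 0.75, adjusted p = 0.0872), Tom- oil replicate 3 (0.79, 0.0648) or Tom- CCl4 replicate 3 (0.54, 0.126). In Tom+ the call of Chmp4c was lost without Tom+ oil replicate 1 (adjusted p = 0.0726) or 3 (0.0513) or Tom+ CCl4 replicate 1 (0.0601) or 3 (0.0501). Averaged over both fractions the log2 fold change of Chmp4c was 0.87 (adjusted p = 0.00798, or 0.0250 without both oil libraries whose reporter went against the label), and it fell to 0.72, under the fold threshold, without Tom- CCl4 replicate 3.

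Pla2g4a, which encodes the cytosolic phospholipase A2 that annexins are known to inhibit, was the other partner gene called over both fractions (log2 2.09, adjusted p = 0.0484). It rested on 0, 3 and 8 counts in Tom- oil, 6, 12 and 16 in Tom+ oil, 21, 13 and 20 in Tom- CCl4 and 50, 22 and 9 in Tom+ CCl4. The Tom- groups of Pla2g4a did not overlap and the Tom+ groups did, and its call was lost in 11 of 12 fits that left out 1 library (adjusted p up to 0.103) and without both oil libraries whose reporter went against the label (0.102).

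Dysf, which encodes the membrane-repair protein dysferlin, differed between the CCl4 fractions in the opposite sense to Anxa2. With CCl4 in Tom-, both genes were called higher. It measured 0.327 ± 0.067 RPKM in Tom- oil, 0.349 ± 0.077 in Tom+ oil, 0.676 ± 0.062 in Tom- CCl4 and 0.378 ± 0.033 in Tom+ CCl4. Dysf rose with CCl4 in Tom- (log2 1.05, adjusted p = 0.00493, or 0.0179 without both oil libraries whose reporter went against the label) and was lower in Tom+ than in Tom- in CCl4 (log2 -0.84, adjusted p = 0.0305). The difference between the CCl4 fractions was no longer called for Dysf without Tom- CCl4 replicate 1 (0.0835) or 2 (0.107) or Tom+ CCl4 replicate 1 (0.0775), 2 (0.127) or 3 (0.0549). Plgrkt, a plasminogen receptor, rose with CCl4 in Tom- (log2 0.83, adjusted p = 0.0117) and gave -0.13 in Tom+ (adjusted p = 0.729). The Tom- call of Plgrkt was lost without Tom- oil replicate 1 (log2 0.76, adjusted p = 0.0536), Tom- oil replicate 2 (0.74, 0.0509), Tom- CCl4 replicate 1 (0.71, 0.0424) or both oil libraries whose reporter went against the label (0.76, 0.0629). With a coefficient for each pair, the interaction was called lower for Dysf (-0.93, adjusted p = 0.0227) and Plgrkt (-0.98, adjusted p = 0.0172), and without it edgeR called neither (0.112 and 0.0850) while DESeq2 called both (-0.93, adjusted p = 0.0423 and -0.95, adjusted p = 0.0256). Of all 17121 genes, 718 were called lower in the interaction with that coefficient, 164 without it and 475 by DESeq2. Plg, the plasminogen gene of the hepatocyte, had group means of 561.5 to 723.2 RPKM and was not called. Its Tom+ CCl4 libraries (547.7 to 574.9 RPKM) lay below all others (617.2 to 789.7 RPKM). Between the CCl4 fractions its log2 fold change was -0.33 (edgeR adjusted p = 0.0799, or 0.0125 with a coefficient for each pair), within the fold threshold.

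Across the 12 libraries, and among 13051 genes with a mean of at least 1 CPM, the levels most like those of Anxa2 on the log2 RPKM scale were those of Cdkn1c (Pearson r = 0.975), Slc1a4 (0.966), Gm44250 (0.963), Hacd1 (0.962) and Fabp5 (0.959). Of the other genes of the list, S100a11 had r = 0.90 with Anxa2, Anxa1 0.83, Anxa3 0.61 and S100a6 0.57, while S100a10 had -0.50 and Anxa6 -0.92. The libraries fall into 4 groups by treatment and fraction, so these values largely restate the differences between groups. For S100a6, with counts in 4 libraries, the likest genes were Leprotl1 (0.903), Arhgap19 (0.877), Asns (0.872), Ugt2b35 (0.871) and Gstm4 (0.867), with Spearman's rho of 0.563 to 0.767, and in counts this sparse such values carry little.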

How the data were processed

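The data are bulk RNA-seq of 12 libraries in 4 groups of 3, grouped by the treatment, fraction and replicate number in the labels. Per the labels and methods, polyA RNA was made into strand-specific libraries, and the authors used fastp (v0.23.2), HISAT2 (v2.1.0) with mm10, and DESeq2 (v1.42.1). The counting program and its strand setting are not given in the sources used here. The authors deposited expected counts per feature, not normalized, with feature positions and lengths, and these counts were rounded to whole numbers here, since 30.4% to 32.9% of each library's values above 0 had fractions. The table lists 54839 features, of which 54723 (99.8%) were matched to a symbol.

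The rounded counts were filtered by filterByExpr (17121 genes kept), TMM-normalized and fitted with 1 coefficient per group over all 12 libraries by the robust quasi-likelihood method of edgeR (v4.0.16) under R (v4.3.3). The contrast of CCl4 with oil over both fractions used limma-voom (limma v3.58.1) with the same-numbered libraries of a treatment as a random block. Alternatives were DESeq2 (v1.42.0), limma-voom, RLE and upper-quartile normalization, no filter, at least 10 counts in every library, the adjusted p alone, a replicate block, the libraries of a treatment alone, leaving out each library, and leaving out both oil libraries whose reporter went against the label. Scripts were tested on simulated data. Sequences and figures were handled in Python (v3.11.15) with matplotlib (v3.10.9).

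Total counts ranged from 37568584 to 75331424 per library. The paired numbers were checked by the correlation of deviations from group means: same-numbered Tom+ and Tom- libraries gave 0.504 to 0.707 in CCl4 and 0.348 to 0.549 in oil, all over 0.1, so that the numbers, which come from the labels, pair them, whereas oil and CCl4 libraries of the same number gave 0.009 to 0.304 and were not taken as pairs. The 10 genes, the other family and partner lists and the marker lists were chosen with earlier results of these data known. All 10 genes are described in every library, other family and partner genes are named where called or where their level is given as background (the latter chosen after their values were seen), and the 5 genes most like Anxa2 and S100a6 are named.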

Additional observations from a re-analysis of the deposited data

Results flagged for a closer look

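The difference between the Tom+ against Tom- effect in CCl4 and that in oil was past the adjusted p threshold of edgeR's interaction test for 2 of the 9 tested genes, where 0.473% of all genes were past it and higher and 1.07% were past it and lower. The list was drawn up with the Anxa2 difference known, so these values are descriptions. For Anxa2 the difference was 1.58 on the log2 scale (adjusted p = 0.0339), and the adjusted p rose above 0.05 in 8 of 12 fits that left out 1 library. For Anxa7 it was 0.70 (adjusted p = 0.0493), under the fold threshold of 0.75, and the adjusted p was 0.139 without both oil libraries whose reporter went against the label. Both genes were higher in the Tom+ library of each CCl4 pair and lower in that of each oil pair, but the reporter separated the fractions in 1 of 3 oil pairs.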

How the results depend on the processing

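Of the log2 fold changes of single genes under the alternatives, 1266 kept their direction and their side of the thresholds, 74 lost a call, 15 gained a call and 21 changed sign, each of the last in a comparison that was not called. The cause of these moves was not tested, except that leaving out libraries leaves fewer of them. Leaving out 1 library moved the number of the 10 genes called higher between 0 and 1 for Tom+ against Tom- in CCl4, between 2 and 4 for CCl4 against oil in Tom-, between 2 and 3 in Tom+, between 0 and 2 for the interaction and between 2 and 4 for CCl4 against oil over both fractions. Of all genes tested in these fits (17392 to 17680), 3 to 47 were called higher between the CCl4 fractions. With CCl4, 723 to 1127 were called higher in Tom- and 257 to 522 in Tom+. For the interaction it was 13 to 71, and over both fractions 622 to 954. Without both oil libraries whose reporter went against the label, 1 was called higher in Tom- with CCl4 and 2 over both fractions. Of all 17525 genes tested in that setting, 757 and 536 were called higher in the same comparisons. With the adjusted p alone, 1 gene each was called lower in Tom- (S100a10), in Tom+ (Anxa6) and over both fractions (Anxa6) with CCl4, and 2 were called higher in the interaction. Anxa7 was then also called higher with CCl4 in Tom+.

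Signs turned in comparisons that were not called. For Tom+ against Tom- in oil, Anxa4 gave 0.0018 with limma-voom, 0.0086 with upper-quartile normalization and 0.049 without both oil libraries whose reporter went against the label, which also gave 0.011 for Anxa5 and 0.044 for S100a11. For Tom+ against Tom- in CCl4, Anxa1 gave -0.036 with limma-voom. Leaving out 1 library gave ranges that cross 0 for Anxa1 in CCl4 (-0.43 to 0.61), in oil (-0.22 to 1.25) and in the interaction (-1.14 to 0.50), for Anxa3 in CCl4 (-1.02 to 0.0021), for Anxa4 (-0.072 to 0.062), Anxa6 (-0.047 to 0.13), S100a10 (-0.030 to 0.13) and S100a11 (-0.48 to 0.073) in oil, and for Anxa5 (-0.035 to 0.057) and Anxa7 (-0.016 to 0.077) over both fractions.

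The replicate block with a coefficient for each Tom+ and Tom- pair gave Anxa2 a log2 fold change of 1.02 in CCl4 and 1.54 in the interaction, and changed no call of the 10 genes. Between the CCl4 fractions it put Anxa4, Anxa5, Anxa7 and S100a10 past the adjusted p threshold, within the fold threshold. Anxa1, Anxa3, Anxa6 and S100a11 stayed above an adjusted p of 0.05. The share of all genes past the adjusted p threshold alone in that fit was not computed. For CCl4 against oil, where the numbers were not taken as pairs, an additive replicate block also changed no call of the 10 genes and called S100g in Tom- (log2 3.38, adjusted p = 0.0421). Depth limits S100a6, Anxa1 and Anxa3 most, with as few as 0, 6 and 18 counts in a library.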
